A study of Mus musculus with 6 samples.

Results

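The opioid peptide precursors Penk, Pdyn and Pnoc and the opioid receptors Oprm1, Oprd1, Oprk1 and Oprl1 were followed in RNA labelled hypothalamus from DIO mice given GSK-J4 or vehicle. They are 7 of the 37074 gene names on the array. Their probes were taken by name alone, as every probe whose gene name in the scanner files equals 1 of the 7 symbols. This gave 17 of 56605 probes. The genes themselves were chosen with earlier results of these data known. All 7 symbols are current in the RefSeq gene table, and 12 of the 17 probes carry a RefSeq record of the same gene there.

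The mice were male C57BL/6J DIO animals, that is, mice made obese by a diet with 60 kcal% fat, fed for 16 weeks from the age of 6 weeks. GSK-J4, a compound that inhibits demethylases of H3k27me3, was given at 30 mg kg−1 to 1 group and vehicle to the other. Tissue was taken at ZT 6 h, counted from lights on, on day 4 after exposure by the description of the arrays, whereas the methods describe a longer course of daily injections. Each of the 6 Agilent SurePrint G3 arrays (3 GSK-J4, 3 vehicle) is labelled as a replicate of its group and was taken as RNA of a different mouse. The methods count an individual mouse as the biological replicate in vivo but do not state this for the arrays. The number of arrays limits the precision of every value. The comparison asks which transcripts differ in the tissue after GSK-J4.

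Opioid peptides are cut from large precursor proteins. Penk gives the enkephalins, Pdyn the dynorphins and Pnoc nociceptin. Their receptors act through inhibitory G proteins, which open potassium channels, close calcium channels and lower cyclic AMP, so that the receiving neuron is quieted. In the hypothalamus these peptides are known for effects on feeding, water balance and reproduction, and dynorphin is made there by neurons that also make vasopressin, orexin, or kisspeptin and neurokinin B.

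The arrays did not start from the same signal. Of all probes, 63.6%, 63.4% and 62.8% were well above background on vehicle arrays 1, 2 and 3, against 58.7%, 57.7% and 58.6% on GSK-J4 arrays 1, 2 and 3. The upper quartile of the spot intensity was 802, 916 and 787 with vehicle and 461, 453 and 406 with GSK-J4. Each group lies on a slide and a scan of its own (slide 1 and scan 1 for vehicle, slide 2 and scan 2 for GSK-J4), so treatment and slide cannot be told apart in any difference below. Because the tissue is bulk RNA, fewer cells of a type and less RNA per cell cannot be told apart either.

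The tissue label was set against marker genes. Of 12 hypothalamus markers, 6 (Hcrt, Pomc, Oxt, Ghrh, Nr5a1 and Hdc) were well above background on each of the 6 arrays. Sim1 and Nkx2-1, transcription factors that define hypothalamic territory, were well above background on no array. Avp, Pmch and Trh, peptide genes of hypothalamic neurons, reached that level on 1 vehicle array and 2 GSK-J4 arrays each, and Agrp on 5 arrays in all. By contrast all 8 cortex markers, all 8 thalamus markers and 11 of 12 striatum markers were well above background on each of the 6 arrays, the exception being Drd2, seen on none. Among the cortex markers were Tbr1, Neurod6 and Slc17a7, genes of cortical excitatory neurons. The data therefore show 6 hypothalamus markers throughout but do not bear out the label at several of its defining genes. Most listed markers of neighbouring forebrain regions were also present throughout, and the share of each region in the RNA was not tested. Of 8 pituitary markers, 6 were on no array.

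A single vehicle array also stood apart. The summed linear signal of 8 choroid plexus markers, genes of the tissue that makes cerebrospinal fluid, was 115500 on vehicle array 1 and 3391 and 3589 on the other vehicle arrays. On GSK-J4 arrays 1, 2 and 3 it was 12650, 3147 and 6020. Ttr, the transthyretin gene, had a log2 signal of 16.15, 10.66 and 10.85 with vehicle and 13.24, 10.42 and 12.03 with GSK-J4. Vehicle array 1 was the highest and the groups overlapped, and none of the 8 choroid plexus genes passed the test in limma (0 at an unadjusted p of at most 0.05, 0 by the methods' t-test in either form). Without vehicle array 1 limma called 2 probes higher and 8 lower of all those kept. Every call of a single gene from the main fit given below was lost then, as it was without vehicle array 2 or 3, though each log2 difference kept its sign. Without vehicle array 1 it was -0.87 instead of -0.78 for Mme, -0.76 instead of -0.83 for Kcnj6 and 0.46 instead of 0.41 for C1qa.

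**Figure D1:**
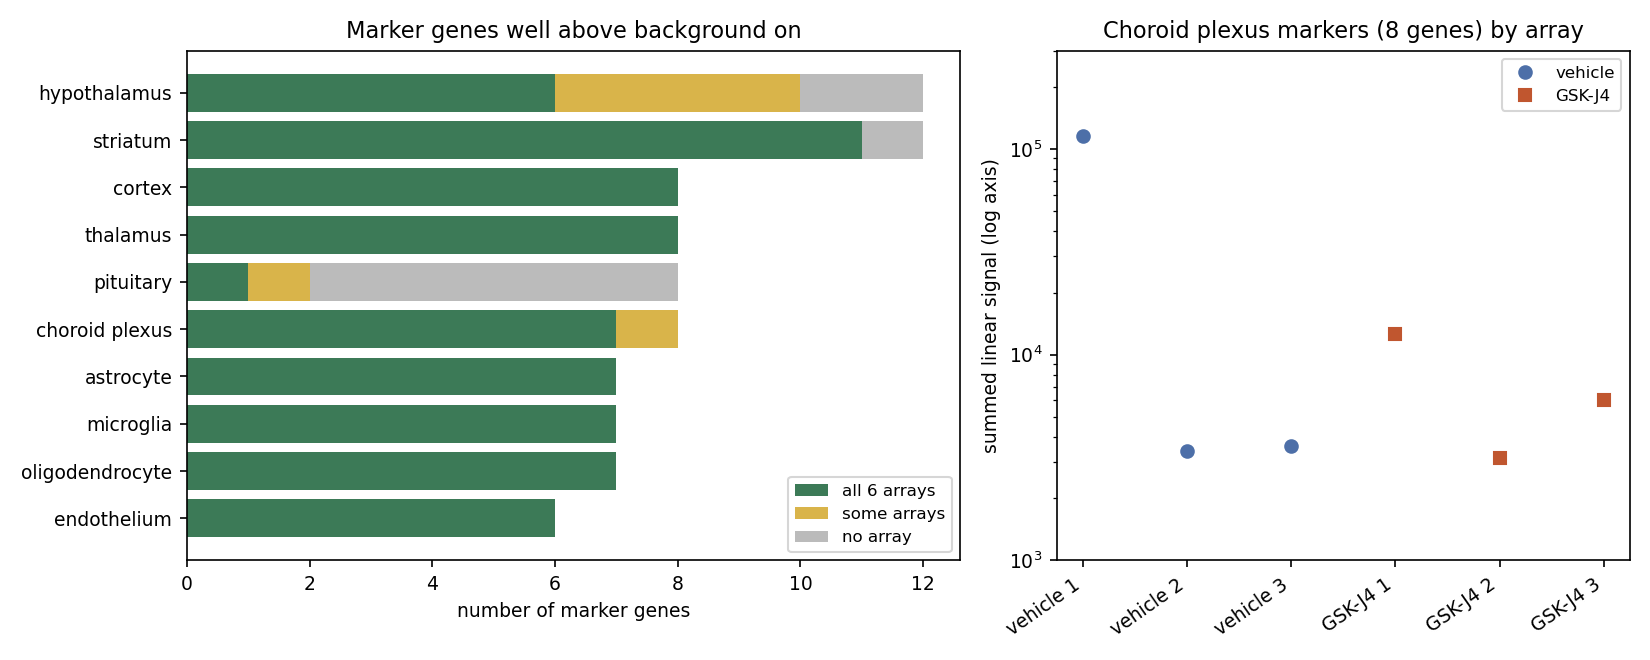
Left, the number of marker genes of each region or cell type that were well above background on all 6 arrays, on some arrays or on no array. Right, the summed linear signal of the 8 choroid plexus markers on each array, on a log axis, with 115500 on vehicle array 1 and between 3147 and 12650 on the others.

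Of the 17 opioid probes, 11 entered the test, which took probes well above background on every array of 1 group or both, and these 11 were above background on all 6 arrays. Every gene kept at least 1 probe. Pnoc was higher with GSK-J4, by 1.32-fold (95% interval 1.15 to 1.52, limma adjusted p = 0.032), and no opioid probe was called lower. So 1 of 11 probes was called higher and 0 of 11 lower, with a threshold of 0.05 on the adjusted p, beside 8.39% called higher and 8.42% called lower of all 34443 kept probes. At an unadjusted p of at most 0.05 limma gave 2 probes higher and 1 lower, beside 19.5% and 17% of all kept probes, and after adjustment the methods' t-test gave 1 higher and 0 lower with equal variances and 0 in either direction with unequal variances. The methods name the form with unequal variances for comparisons of 2 groups in general, but name no form for the arrays. The form with equal variances was run beside it. The methods name no adjustment for the arrays either, so the adjustment was added here. Before it, Pnoc was at an unadjusted p of at most 0.05 in both forms. A fold of at least 1.5 together with an unadjusted p of at most 0.05, the thresholds of the methods, was passed by 0 of 11 opioid probes, beside 4.79% higher and 7.86% lower of all kept probes. The groups did not overlap at 3 probes with higher values in GSK-J4 and 1 with lower values, beside 24.5% and 21.2% of all kept probes. The median log2 difference, GSK-J4 minus vehicle, was 0.27 over the 11 probes and 0.0245 over all kept probes. These shares do not set the opioid probes apart from the rest of the array.

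**Figure D2:**
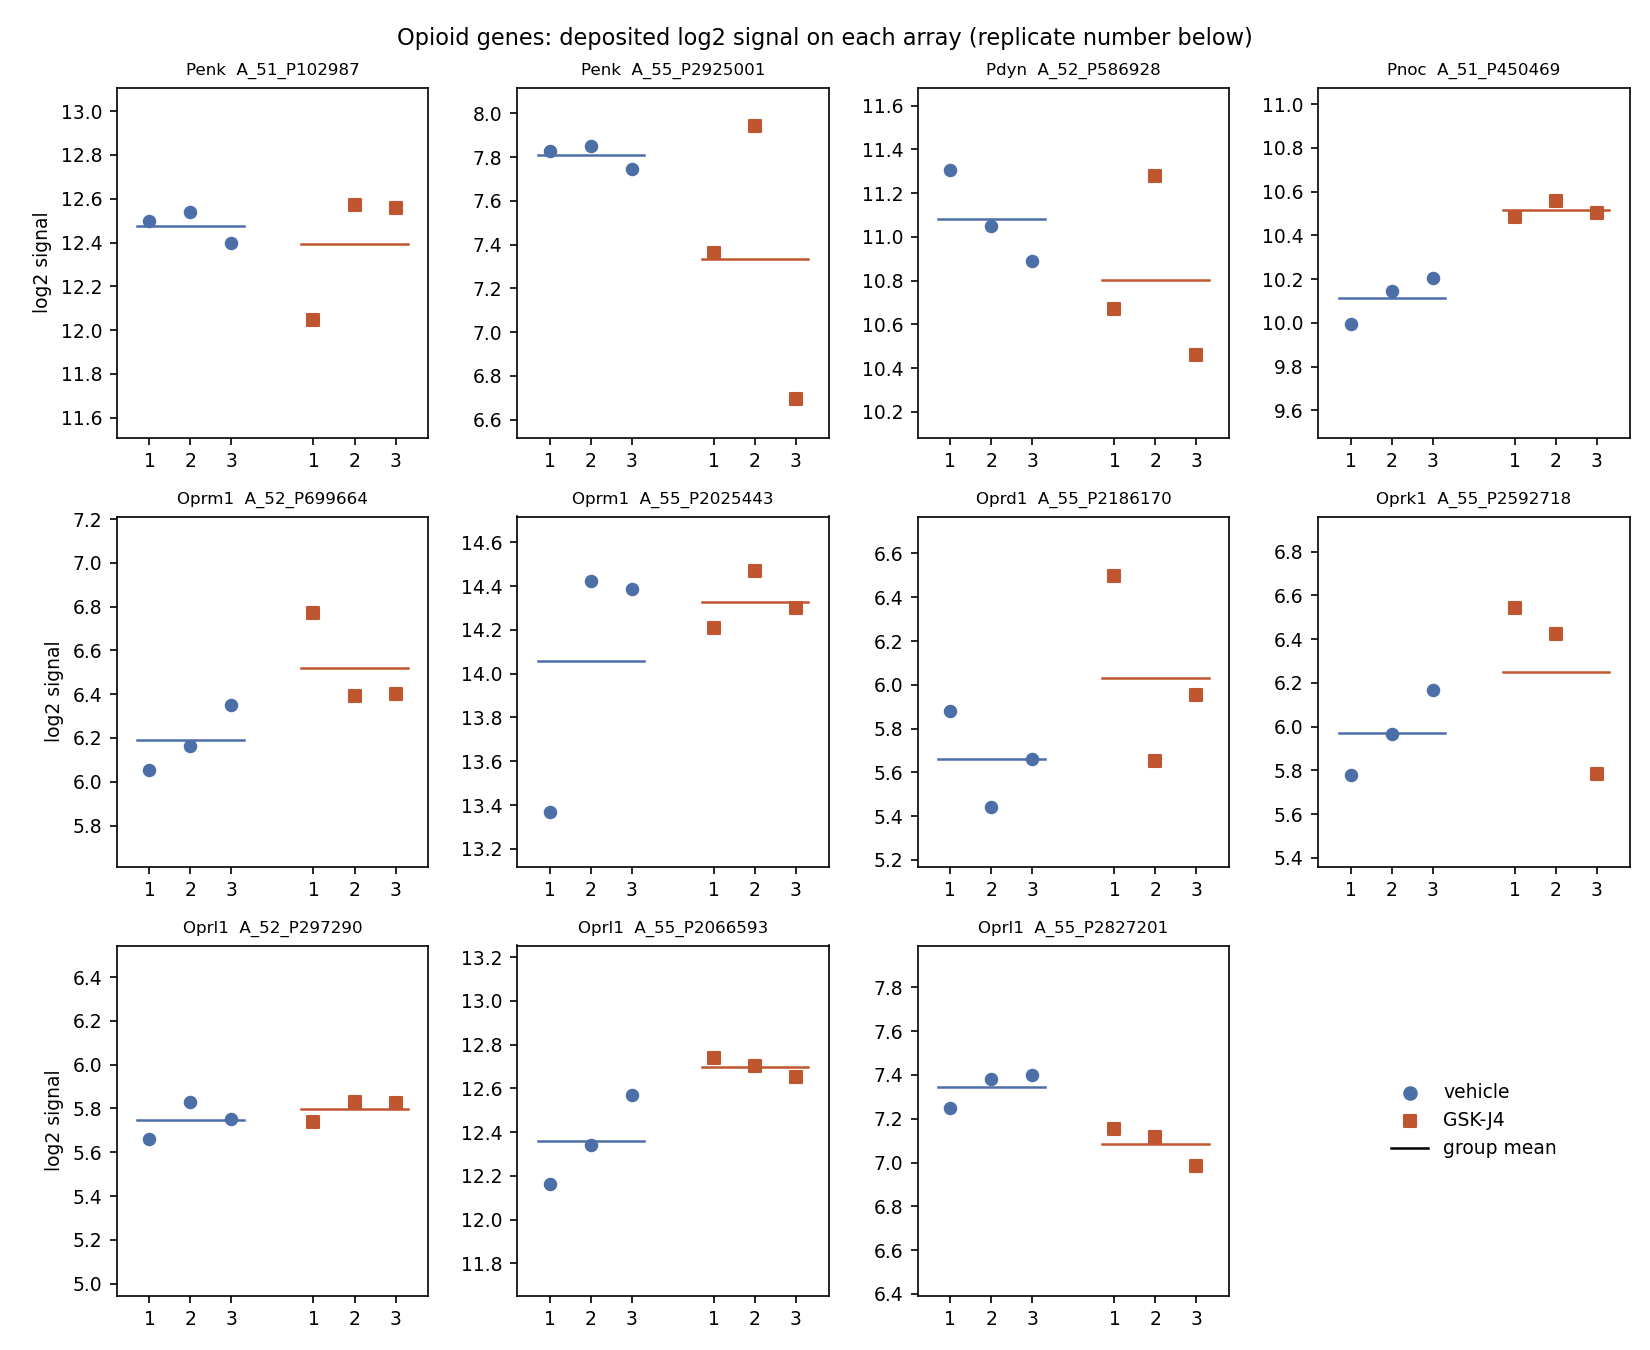
Deposited log2 signal of each kept opioid probe on each array, with vehicle as circles and GSK-J4 as squares, the replicate number on the x axis and the group mean as a line. Every panel spans 1.6 log2 units around its own level, and the groups do not overlap for Pnoc, Oprm1 A_52_P699664, and Oprl1 A_55_P2066593 and A_55_P2827201.

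Pnoc encodes the precursor of nociceptin, the peptide that binds Oprl1. Its probe (A_51_P450469, chr14:66020505-66020564 of mm9, minus strand, record NM_010932) is the opioid probe that passed the test, and the last 30 of its 60 bases, at chr14:66020505-66020534, are shown to identify it.
Pnoc: gtgtatttttgtaatttctccagctaacat
The log2 signal of Pnoc was 10.00, 10.14 and 10.20 on vehicle arrays 1, 2 and 3, and 10.49, 10.56 and 10.50 on GSK-J4 arrays 1, 2 and 3. All 3 GSK-J4 arrays were above all 3 vehicle arrays. The mean was 10.11 ± 0.11 (SD, n = 3) with vehicle and 10.52 ± 0.04 (SD, n = 3) with GSK-J4. Pnoc thus rose by 0.40 in log2 signal (standard error 0.083, limma adjusted p = 0.032). An exact permutation test of the 6 arrays, two-sided, gave p = 0.1, which is the smallest that 3 arrays against 3 allow. The call rests on all 6 arrays together: without any 1 of them the difference was between 0.34 and 0.45 and the limma adjusted p between 0.058 and 0.10, and without vehicle array 1 it was 0.34 with an adjusted p of 0.080. It was also lost in the methods' t-test with unequal variances (adjusted p = 0.12).

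Penk, the precursor of the enkephalins, is read by a pair of probes on chromosome 4. The probe of the RefSeq record (A_51_P102987, chr4:4060735-4060794, minus strand) gave a log2 signal of 12.50, 12.54 and 12.40 with vehicle and 12.05, 12.57 and 12.56 with GSK-J4. GSK-J4 array 1 was the lowest of all 6, the remaining GSK-J4 arrays were the highest, and the groups overlapped. The log2 difference was -0.086 (95% interval -0.48 to 0.31, limma adjusted p = 0.72), and its sign turned to 0.10 with scaling to the 75th percentile, to 0.0025 after a correction for GC content and to 0.086 without GSK-J4 array 1. As a fold, the interval runs from 0.718 to 1.24.

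The other Penk probe (A_55_P2925001, chr4:4065808-4065867, minus strand) is assigned to an Ensembl transcript. Its first 30 bases, at chr4:4065838-4065867, are shown because they hold an unbroken run of 17 C and T, in capitals, a feature that 0.311% of all probes share at that length or more.
Penk: ttacacttgCCTTCTTTCTTTCTCTTgcag
Its log2 signal was 7.83, 7.85 and 7.74 with vehicle and 7.36, 7.94 and 6.69 with GSK-J4. The vehicle arrays lay close together, whereas the GSK-J4 arrays held both the highest and the lowest value of the 6. The log2 difference was -0.48 (95% interval -1.23 to 0.28, limma adjusted p = 0.31), and it ranged from -0.78 to -0.16 as each array was left out. The differences of both Penk probes were themselves 0.39 apart (standard error 0.40, exact permutation test, two-sided p = 0.8).

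Pdyn, the precursor of the dynorphins, has 1 probe (A_52_P586928, chr2:129512323-129512382, minus strand). The log2 signal of Pdyn was 11.31, 11.05 and 10.89 with vehicle and 10.67, 11.28 and 10.46 with GSK-J4. GSK-J4 arrays 1 and 3 were the lowest of the 6, GSK-J4 array 2 lay within the vehicle range, and the groups overlapped. The log2 difference was -0.28 (95% interval -0.86 to 0.30, limma adjusted p = 0.43). It ranged from -0.52 to -0.11 as each array was left out and was -0.17 without vehicle array 1.

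Since Penk and Pdyn are abundant in the striatum, striatum markers were set beside them. The summed linear signal of the 11 measured striatum markers was 22150, 18660 and 18520 with vehicle and 18770, 19910 and 22510 with GSK-J4, so the groups overlapped. Syndig1l rose by 0.71 in log2 signal (standard error 0.14, limma adjusted p = 0.029) but was not called by the methods' t-test with equal or unequal variances (adjusted p = 0.064 and 0.16), and 0 of the 11 were called lower. At an unadjusted p of at most 0.05 limma gave 3 of the 11 higher, with Drd1 at 0.72 (limma adjusted p = 0.063) and Adora2a at 0.40 (limma adjusted p = 0.069) beside Syndig1l, and 1 lower, and the methods' t-test gave 0 after adjustment. The unadjusted shares over all kept probes were 19.5% higher and 17% lower in limma. After the GC correction 2 of the 11 were called higher and 0 lower. The median was 0.12, and -0.013 after the GC correction. It was 0.24, 0.165 and 0.24 without vehicle arrays 1, 2 and 3 in turn, and 0.24 without GSK-J4 array 1. Rasd2, a striatum marker, gave a log2 signal of 12.56, 12.58 and 12.43 with vehicle and 12.00, 12.78 and 12.76 with GSK-J4. Its lowest value, as for Penk, was on GSK-J4 array 1, and the part of striatal tissue in the Penk and Pdyn values was not tested.

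The genes whose profiles over the 6 arrays were most like those of the precursors are given as a description, since 6 arrays in 2 groups leave few distinct patterns. Among 20224 other genes on all 6 arrays, Penk was followed most closely by 5830408C22Rik (Pearson r = 0.993), Nat8l (r = 0.985) and an unnamed transcribed region (r = 0.985), and 192 genes (0.949%) reached r of at least 0.9. For Pdyn these were 9630033C03Rik (r = 0.991), AI463170 (r = 0.974) and Zeb2 (r = 0.972), with 59 genes (0.292%) at 0.9 or more. For Pnoc they were Nkiras2 (r = 0.9999), Dnajc28 (r = 0.9975) and an unnamed transcribed region (r = 0.9969), with 1732 genes (8.56%) at 0.9 or more, many more than for Penk or Pdyn, whose groups overlapped.

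**Figure D3:**
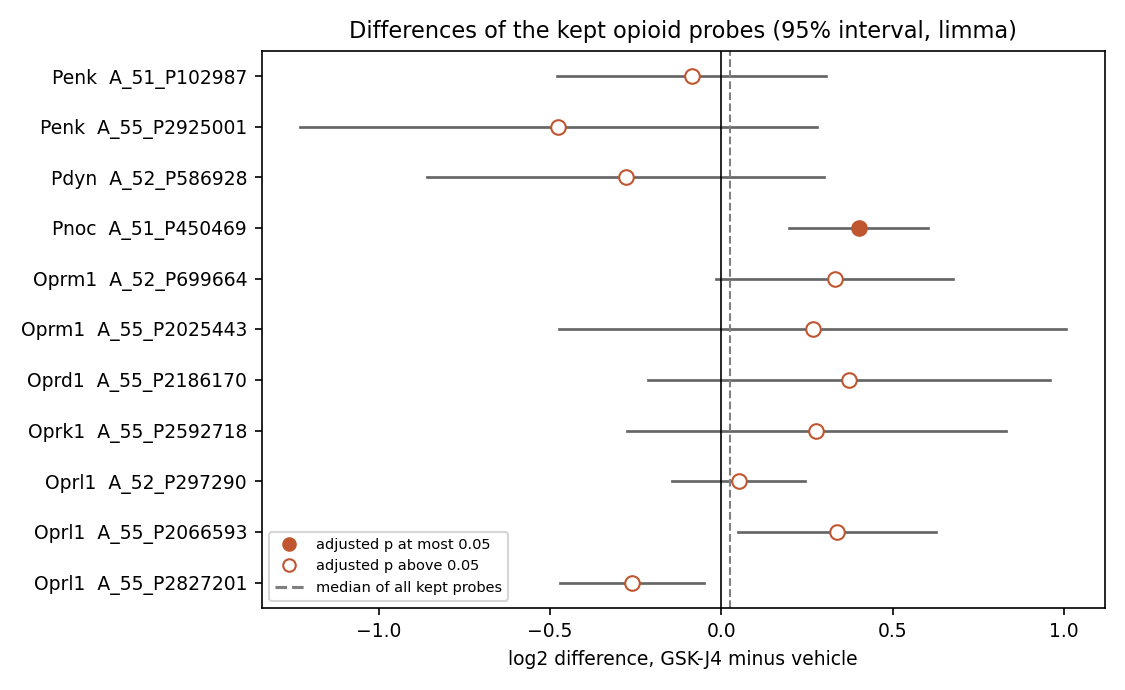
Log2 difference, GSK-J4 minus vehicle, of each kept opioid probe (points) with its 95% interval from limma (lines). The filled point, Pnoc at 0.40, passed an adjusted p of 0.05, the dashed line is the median of all kept probes at 0.0245, and the signs of the first Penk probe and the first Oprl1 probe turn with scaling to the 75th percentile.

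Oprl1, the receptor of nociceptin, has 3 probes on chromosome 2, all of the record NM_011012 and all above background on every array. They are shown because their differences did not run the same way. The probes at chr2:181450549-181450608 (A_52_P297290) and chr2:181453719-181453778 (A_55_P2827201) are printed whole. Both were taken for coding sequence from an open reading frame over their 60 bases and general knowledge of the receptor, not from an exon annotation. Of the probe at chr2:181455616-181455675 (A_55_P2066593) the last 30 bases, chr2:181455646-181455675, are printed, with AATAAA, the sequence that commonly precedes a polyadenylation site, in capitals. All are on the plus strand, and 9.77% of all probes hold AATAAA on the strand printed.
A_52_P297290: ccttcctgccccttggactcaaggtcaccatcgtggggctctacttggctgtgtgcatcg
A_55_P2827201: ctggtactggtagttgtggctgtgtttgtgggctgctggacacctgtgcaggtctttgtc
A_55_P2066593: ggagttctcatAATAAAcacttaccagtga

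On the probe with AATAAA the log2 signal of Oprl1 was 12.16, 12.34 and 12.57 with vehicle and 12.74, 12.70 and 12.65 with GSK-J4. All GSK-J4 arrays were above all vehicle arrays, and the log2 difference of 0.34 (95% interval 0.050 to 0.63) had a limma adjusted p of 0.097. On A_55_P2827201 it was 7.25, 7.38 and 7.40 with vehicle and 7.15, 7.12 and 6.98 with GSK-J4. Here all GSK-J4 arrays were below all vehicle arrays, and the log2 difference of -0.26 (95% interval -0.47 to -0.049) had a limma adjusted p of 0.088. On A_52_P297290 the groups overlapped, with a log2 difference of 0.051 (95% interval -0.14 to 0.24, limma adjusted p = 0.67) whose sign turned to -0.070 with scaling to the 75th percentile and to -0.22 after the GC correction, and which was 0.0073 without vehicle array 1. With scaling to the 75th percentile both other probes passed the test in opposite directions, at 0.53 (limma adjusted p = 0.032) and -0.39 (limma adjusted p = 0.025), and A_55_P2827201 also passed after the GC correction, at -0.51 (limma adjusted p = 0.032). With normexp background neither passed, at 0.27 (limma adjusted p = 0.077) and -0.15 (limma adjusted p = 0.15). As each array was left out the AATAAA probe ranged from 0.24 to 0.44 and A_55_P2827201 from -0.31 to -0.21.

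The difference between the AATAAA probe and A_55_P2827201 in their response was 0.60 on the log2 scale (standard error 0.082), with every GSK-J4 array above every vehicle array. The exact permutation test, two-sided, gave p = 0.1, the smallest possible here, and 0.167 after Benjamini-Hochberg adjustment over the 5 probe pairs compared. Both remaining Oprl1 pairs, which involve A_52_P297290, differed by -0.29 and 0.31 with the same exact p of 0.1. No single direction can thus be given for Oprl1, and which transcripts each probe reads was not tested.

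Oprm1, the mu receptor, which binds enkephalins, has 7 probes on chromosome 10, of which 5 were not kept. The probe A_51_P100309 (chr10:3516154-3516213, minus strand), of the MOR-1C record, was taken for coding sequence on the same grounds and is shown because it was well above background on no array.
A_51_P100309: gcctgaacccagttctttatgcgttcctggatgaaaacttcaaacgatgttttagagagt
Of the other 4 probes that were not kept, A_55_P2087448 was well above background on 1 vehicle array and the rest on none. The kept probe A_52_P699664 (chr10:3492541-3492600), of a predicted record, gave a log2 signal of 6.05, 6.16 and 6.35 with vehicle and 6.77, 6.39 and 6.40 with GSK-J4. The groups did not overlap, with all GSK-J4 arrays higher, but the log2 difference of 0.33 (95% interval -0.014 to 0.68) had a limma adjusted p of 0.15. It ranged from 0.21 to 0.41 as each array was left out and was 0.090 with normexp background.

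The remaining kept Oprm1 probe, A_55_P2025443 (chr10:3308332-3308391, minus strand), belongs to the MOR-1U record and is made largely of simple repeats. A stretch of 30 bases, chr10:3308342-3308371, is shown with its 26-base AC repeat in capitals.
A_55_P2025443: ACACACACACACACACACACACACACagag
Its log2 signal was 13.37, 14.42 and 14.39 with vehicle and 14.21, 14.47 and 14.30 with GSK-J4. Vehicle array 1, the array with the high choroid plexus signal, was the lowest, and the groups overlapped. The log2 difference was 0.27 (95% interval -0.47 to 1.01, limma adjusted p = 0.55) and turned to -0.079 without vehicle array 1. It was 0.58 with scaling to the 75th percentile and 0.13 with weights for arrays. Of all probes, 39 carry at least 8 AC repeats in a row, under 39 gene names, and 100% of them were well above background on all 6 arrays, beside 54.6% of the probes without such a run. None of the 39 was called, beside 16.8% of all kept probes. A signal at such a repeat need not come from Oprm1, and how much of it does was not tested.

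Oprd1, the delta receptor, which also binds enkephalins, has 1 probe (A_55_P2186170, chr4:131666647-131666706, minus strand). The log2 signal of Oprd1 was 5.88, 5.44 and 5.66 with vehicle and 6.50, 5.65 and 5.95 with GSK-J4. GSK-J4 arrays 1 and 3 were the highest, array 2 lay within the vehicle range, and the log2 difference was 0.37 (95% interval -0.21 to 0.96, limma adjusted p = 0.30), with a range of 0.14 to 0.56 as each array was left out.

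Oprk1, the kappa receptor, which binds dynorphins, kept 1 of its 2 probes (A_55_P2592718, chr1:5593115-5593174, plus strand). The log2 signal of Oprk1 was 5.78, 5.97 and 6.17 with vehicle and 6.54, 6.42 and 5.79 with GSK-J4. GSK-J4 arrays 1 and 2 were above every vehicle array while array 3 was near the lowest, and the log2 difference was 0.28 (95% interval -0.27 to 0.83, limma adjusted p = 0.41), with a range of 0.13 to 0.51 as each array was left out. The other probe (A_51_P377528) was well above background on 2 vehicle arrays and 1 GSK-J4 array and was not tested. With normexp background the log2 difference was 0.12 for Oprk1, 0.20 for Oprd1 and -0.31 for the second Penk probe.

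Genes that serve opioid signalling were taken as lists, with 1 probe per gene. Over all 22117 gene names with a kept probe, 8.6% were called higher and 7.56% lower, and the median log2 difference was 0.036. At an unadjusted p of at most 0.05 limma gave 19.5% higher and 17% lower of all kept probes, the shares beside which the unadjusted counts below stand. Among 8 genes that process prohormones, 1 was called higher and 0 lower in limma (2 and 0 at an unadjusted p of at most 0.05), with a median of 0.057. That gene, Pcsk1n, encodes an inhibitor of the prohormone convertase Pcsk1 and rose by 0.35 in log2 signal (standard error 0.079, limma adjusted p = 0.038). Its probe has a GC content of 66.7%, and after the GC correction the difference was 0.0085 (limma adjusted p = 0.95).

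Of 8 peptidases that can break down opioid peptides, 2 were called higher and 1 lower, with a median of 0.12. Mme, the enkephalin-cleaving enzyme neprilysin, had a log2 signal of 14.03, 14.17 and 14.39 with vehicle and 13.25, 13.54 and 13.43 with GSK-J4. All GSK-J4 arrays were below all vehicle arrays, and Mme fell by 0.78 in log2 signal (standard error 0.13, limma adjusted p = 0.022). Ece2, an endothelin-converting enzyme that also cuts neuropeptides, rose by 0.53 (standard error 0.095, limma adjusted p = 0.025), and Dpp3, an enkephalin-degrading dipeptidyl peptidase, rose by 0.29 (standard error 0.069, limma adjusted p = 0.044). When the mean of all kept probes of a gene replaced its brightest probe, none of these 3 was called, with log2 differences of -0.30 for Mme, 0.28 for Ece2 and 0.22 for Dpp3. After the GC correction Dpp3 was at 0.062 (limma adjusted p = 0.57).

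Of 7 inhibitory G protein subunits and G beta subunits, 0 were called higher (2 at an unadjusted p of at most 0.05, 0 by the methods' t-test in either form) and 1 lower in limma, with a median of 0.18. That gene, Gnai1, an inhibitory alpha subunit, fell by 0.31 in log2 signal (standard error 0.072, limma adjusted p = 0.042), with a log2 difference of -0.12 after the GC correction (limma adjusted p = 0.30). Of 9 effectors, 1 was called higher and 2 lower, with a median of -0.066, and these 3 are among the 4 listed genes for subunits of the GIRK potassium channels that opioid receptors open. The other GIRK gene, Kcnj9, was not called (log2 difference 0.31, limma adjusted p = 0.36).

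Kcnj6 had a log2 signal of 8.29, 8.04 and 8.13 with vehicle and 7.24, 7.49 and 7.24 with GSK-J4. It fell by 0.83 (standard error 0.11, limma adjusted p = 0.016). Kcnj5 gave 4.35, 4.69 and 4.71 with vehicle and 5.46, 5.50 and 5.37 with GSK-J4 and rose by 0.86 (standard error 0.12, limma adjusted p = 0.017). In both genes the groups did not overlap, and both were still called after the GC correction (limma adjusted p = 0.022 for Kcnj6 and 0.027 for Kcnj5). With normexp background the difference of Kcnj5 was 0.19 (limma adjusted p = 0.060), so its call was lost, and neither gene was called by the methods' t-test with unequal variances (adjusted p = 0.076 for Kcnj6 and 0.11 for Kcnj5). Kcnj3 fell by 0.34 (standard error 0.074, limma adjusted p = 0.036), with a log2 difference of -0.15 after the GC correction (limma adjusted p = 0.23) and of -0.059 for the mean of its kept probes (limma adjusted p = 0.81). The calcium channel genes Cacna1a and Cacna1b and the adenylyl cyclase genes Adcy1, Adcy5 and Adcy8 were not called in limma in the main fit. Of the 9 effectors, the methods' t-test called 1 higher and 3 lower with equal variances and 0 with unequal variances. In limma 1 was called higher and 2 lower after the GC correction, and 2 higher and 1 lower with scaling to the 75th percentile.

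Of 15 receptor kinases, arrestins, RGS proteins and sorting proteins, 1 was called higher and 0 lower in limma (2 and 1 at an unadjusted p of at most 0.05, 0 by the methods' t-test in either form), with a median of 0.052. Arrb1, which encodes a beta-arrestin that uncouples activated receptors, rose by 0.38 (standard error 0.096, limma adjusted p = 0.0496), with a log2 difference of 0.32 after the GC correction (limma adjusted p = 0.087). Of 7 transcription factors known to act on Penk or Pdyn, 0 were called in limma (2 higher and 1 lower at an unadjusted p of at most 0.05, 0 by the methods' t-test in either form), and the largest difference was that of Fosb at 0.46 (limma adjusted p = 0.12). In all 9 pathway genes were called in these lists of 8, 8, 7, 9, 15 and 7 genes. Of all 22117 gene names, 8.6% were called higher and 7.56% lower. After the GC correction 4 of the 9 (Mme, Ece2, Kcnj5 and Kcnj6) were still called, beside 3676 of all 34443 kept probes. Without vehicle array 1 none of the 9 was called, beside 10 of all kept probes. Without GSK-J4 array 1 it was 4 of the 9, beside 2402 of all kept probes. These counts do not set the pathway genes apart from the rest of the array. The methods' t-test, adjusted, called 8 of the 9 with equal variances and 0 with unequal variances, beside 3315 and 93 of all kept probes. So few calls with unequal variances mean that the 0 says little about these genes.

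The lists also moved with the normalization. Scaling to the 75th percentile called 5083 of all kept probes higher, and with it 4 of the 8 processing genes were called higher, with a median of 0.44. The medians of the peptidases, G protein subunits, effectors and regulators were then 0.30, 0.29, 0.20 and 0.20, so that of the effectors was above 0 instead of below it. After the GC correction the median of the G protein subunits was 0.036. As each array was left out the medians ranged from -0.0065 to 0.11 (processing), 0.087 to 0.22 (peptidases), 0.032 to 0.26 (G protein subunits), -0.16 to -0.018 (effectors) and -0.034 to 0.13 (regulators), and with the mean of all kept probes of a gene that of the processing genes was -0.028 and that of the peptidases 0.022.

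**Figure D4:**
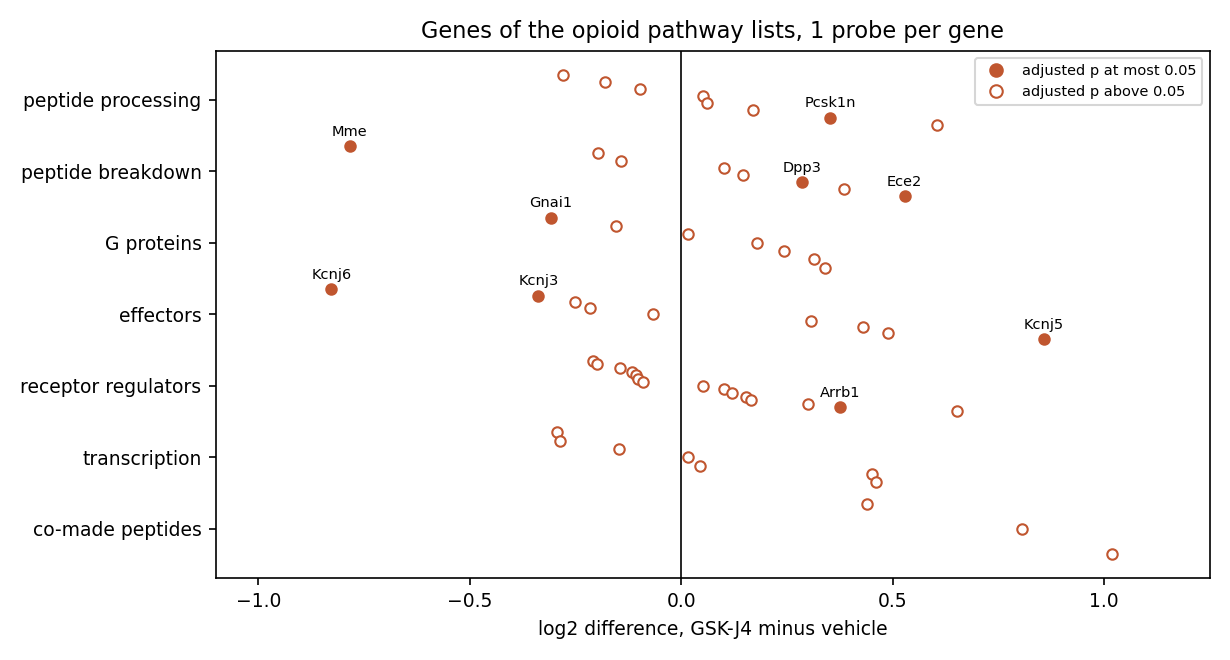
Log2 difference, GSK-J4 minus vehicle, of each measured gene of the opioid pathway lists (points), 1 probe per gene, with genes called in limma filled and named. Kcnj6 at -0.83 and Kcnj5 at 0.86 lie at opposite ends of the effectors, and Gnai1, Kcnj3 and 3 other named genes were not called after the GC correction.

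Peptides of hypothalamic neurons that also make dynorphin were measured at 3 of 4 genes, Avp not being kept. Kiss1, the kisspeptin gene, gave 4.63, 3.67 and 4.41 with vehicle and 5.46, 4.97 and 5.34 with GSK-J4, a log2 difference of 1.02 (limma adjusted p = 0.057). Its probe was well above background on 2 vehicle arrays and all 3 GSK-J4 arrays, so it was kept only through the group where it is higher and its difference is no support. For Hcrt, the orexin gene, the difference was 0.81 (limma adjusted p = 0.059), and for Tac2, the neurokinin B gene, 0.44 (limma adjusted p = 0.062). At Hcrt and Tac2, above background on all 6 arrays, every GSK-J4 array was above every vehicle array, as at 24.5% of all kept probes, but neither was called in limma or by the methods' t-test. Pomc, the hypothalamus marker that yields another opioid peptide, beta-endorphin, rose by 0.85 in log2 signal (standard error 0.14, limma adjusted p = 0.022). It was not called by the methods' t-test with equal or unequal variances (adjusted p = 0.051 and 0.11). In limma its call was lost without any 1 vehicle array (adjusted p between 0.070 and 0.077) and without GSK-J4 array 1 (adjusted p = 0.051). Its log2 signal was 7.79, 8.004 and 8.03 with vehicle and 8.74, 8.60 and 9.05 with GSK-J4, and 1 of the 7 measured hypothalamus markers was called higher and 0 lower. Their summed linear signal was 760, 619 and 628 with vehicle and 821, 763 and 900 with GSK-J4, with every GSK-J4 array above every vehicle array. Without Pomc, a choice made after the values were seen, the sums were 538, 362 and 366 with vehicle and 392, 375 and 370 with GSK-J4. The groups then overlapped, through vehicle array 1 alone, as every GSK-J4 sum was above those of vehicle arrays 2 and 3. The median log2 difference of the 7, of which Agrp was kept through the vehicle arrays only, was 0.10, and -0.092 after the GC correction, and it ranged from -0.056 to 0.33 as each array was left out. Hdc, the histidine decarboxylase gene, had all GSK-J4 arrays below all vehicle arrays, with a log2 difference of -0.51 (limma adjusted p = 0.20).

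In the main fit markers of other regions and cells were set beside all gene names, of which 8.6% were called higher and 7.56% lower. At an unadjusted p of at most 0.05 limma gave 2 of 8 thalamus and 3 of 7 microglia markers higher and 0 lower, beside 19.5% higher and 17% lower of all kept probes. In the cortex list it gave 1 higher and 1 lower. In the cortex list Emx1 rose by 0.53 (limma adjusted p = 0.037) and Neurod6 fell by 0.47 (limma adjusted p = 0.034), and Camk2a was not called. In the thalamus list Tnnt1 rose by 0.66 (limma adjusted p = 0.034) and Rora was not called. The thalamus median was 0.37 (0.35 after the GC correction, 0.38 with scaling to the 75th percentile), and the summed linear signal of the 8 markers was 11480, 10160 and 11680 with vehicle and 15390, 11440 and 16280 with GSK-J4. GSK-J4 arrays 1 and 3 were thus above every vehicle array, while GSK-J4 array 2 lay within the vehicle range. Among 7 microglia markers C1qa rose by 0.41 (limma adjusted p = 0.030) and Itgam was not called. After the GC correction none of these 4 genes was called (limma adjusted p = 0.14 for Emx1, 0.12 for Neurod6, 0.096 for Tnnt1 and 0.25 for C1qa), whereas Pomc and Syndig1l were (0.046 and 0.027). By the methods' t-test C1qa alone of the 4 was called with equal variances (adjusted p = 0.045) and none with unequal variances. In limma 0 of 7 astrocyte, 0 of 7 oligodendrocyte and 0 of 6 endothelium markers were called (2, 1 and 0 at an unadjusted p of at most 0.05, 0 by the methods' t-test in either form), with medians of 0.17, 0.11 and -0.016. The oligodendrocyte median turned to -0.016 without vehicle array 2 and the endothelium median to 0.13 without vehicle array 1. The microglia median turned to -0.0039 without vehicle array 3. Scaling to the 75th percentile gave another picture, with 4 astrocyte, 3 oligodendrocyte and 3 microglia markers called higher and medians of 0.40, 0.39 and 0.32, where the microglia median of the main fit was 0.032. Csf1r, in the microglia list, was kept through the vehicle arrays only. S100b and Flt1 had the highest probe mean of the astrocyte and endothelium lists, and Lhb was the pituitary marker measured. None of them was called in limma in the main fit.

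The calls moved with the base composition of the probes. Of 7890 kept probes with 16.7% to 35% GC, 1.74% were called higher and 15.8% lower, and of 6871 probes with 48.3% to 88.3% GC, 20.4% were called higher and 1.59% lower. The Pnoc probe, with 40% GC, lies in the class from 36.7% to 40%, where 4.1% were called higher and 10.5% lower. The Pnoc difference was 0.45 after the GC correction (limma adjusted p = 0.034). Of the Oprl1 probes, A_55_P2827201 has 55% GC and the AATAAA probe 45%, and after the GC correction the log2 difference of the AATAAA probe was 0.28 (limma adjusted p = 0.17).

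**Figure D5:**
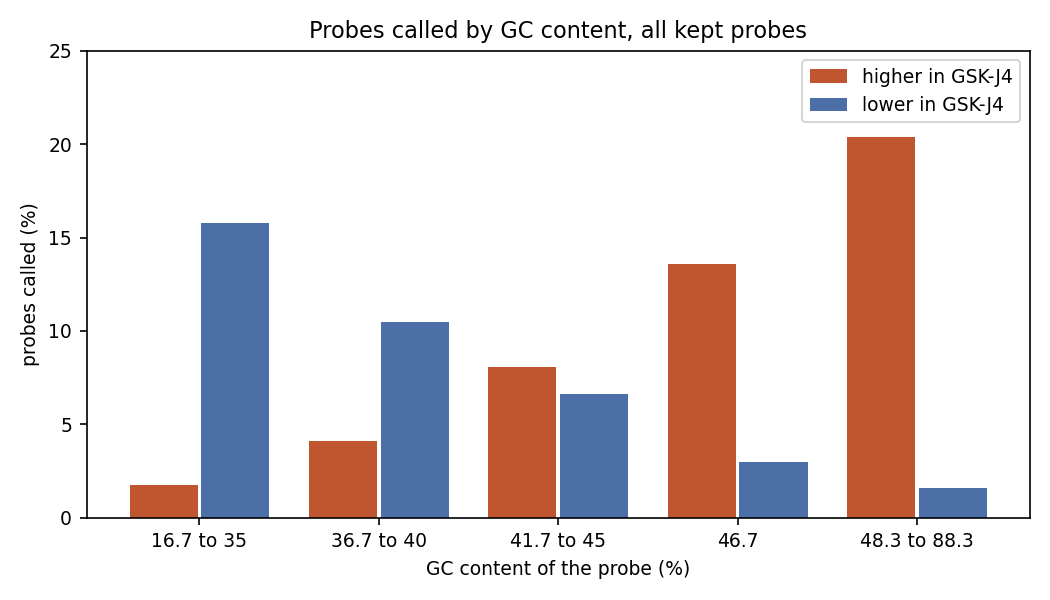
Percentage of kept probes called higher or lower in GSK-J4 by limma in 5 classes of probe GC content. The share called higher goes from 1.74% to 20.4% and the share called lower from 15.8% to 1.59%.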

How the data were processed

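The authors labelled RNA in 1 colour and took a background-corrected spot intensity with Agilent Feature Extraction 10.7.1.1. The authors' table of log2 values, quantile normalized in GeneSpring by their account, was deposited as well and gave all main values. Its columns were assigned by sample name, and 0 were left unassigned. Coordinates are those of the files (mm9), and RefSeq genes (GRCm38.p6) served for names. Exon and UTR annotation on mm9 was not used here.

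Probes were kept where every array of either group had them well above background (34443 of 56605). The comparison used lmFit and eBayes of limma 3.58.1 in R 4.3.3 (with the data.table package, version 1.17.8), two-sided, with Benjamini-Hochberg adjustment over all kept probes. The test was tested on simulated data. Single values had an exact permutation test over the 20 orders of the arrays. In the lists the probe with the highest mean stood for a gene. Members and lists were chosen with earlier results of these data known.

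Genes named were the 7 members, in each pathway list up to 3 called genes or else the one with the largest fold, in each marker list the gene of highest mean and those called, and for each precursor the 3 genes of highest correlation. Other markers and genes named as not called or not above background were chosen after their values were seen. Not every gene that the rule names is reported here. Replicate numbers were checked for pairing, and no clear pairing was seen, which 3 arrays in a group cannot exclude. Alternatives were spot intensities, scaling to the 75th percentile, normexp with an offset of 50, other filters, 1 probe per gene, the mean of a gene's probes, the methods' t-test (unequal variances, and its form with equal variances), eBayes with trend and robust, weights for arrays, a replicate block, a lowess GC correction (span of 30%) and leaving out each array.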

Additional observations from a re-analysis of the deposited data

How the results depend on the processing

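Of the single opioid values, Pnoc stayed above 0 throughout (0.34 to 0.48) and kept its call in 10 of 13 alternatives with all 6 arrays (limma or t-test adjusted p 0.017 to 0.046), and lost it in the other 3 (0.091 to 0.12) and without each array. Signs turned for Penk A_51_P102987 (0.10 with 75th percentile scaling, 0.0025 with GC correction, with or without the replicate block, -0.18 to 0.086 over the arrays left out, positive without GSK-J4 replicate 1), for Oprl1 A_52_P297290 (-0.070 with 75th percentile scaling, -0.22 with GC correction, with or without the block) and for Oprm1 A_55_P2025443 (-0.079 without vehicle replicate 1, up to 0.45 without another). Leaving Pomc out of the summed hypothalamus markers, chosen after seeing the data, turned GSK-J4 mean minus vehicle mean from 159 to -43. That turn rests on vehicle array 1, at 538 without Pomc. Every GSK-J4 sum without Pomc was above those of vehicle arrays 2 and 3 (362 and 366). The causes were not tested.

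Scaling to the 75th percentile called 5083 probes higher, with 2 opioid probes higher and 1 lower. Without a filter 1793 were higher, and with 1 probe per gene, where fewer probes are tested, 1723 were lower. The methods' t-test gave 56 higher, 37 lower and 0 opioid probes higher with unequal variances, and 1831 and 1484 with equal variances. The GC correction gave 1689 higher and 1 opioid probe lower.

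The replicate block, alone or with the GC correction, called 0 probes higher and 0 lower, opioid probes included (11070 and 9595 at an unadjusted p of at most 0.05). Same-numbered arrays deviated together at r = 0.0073, 0.026 and 0.081. GSK-J4 arrays 2 and 3 were most like the vehicle array of their own number, and GSK-J4 array 1 was most like vehicle array 2 (r = 0.093). No clear pairing was seen, but 3 arrays in a group cannot exclude one.

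Leaving out 1 array gave 1 to 2075 probes higher and 4 to 2481 lower, 0 opioid probes higher, 0 to 1 past the fold of 1.5 and 1 to 5 at an unadjusted p of at most 0.05. Without a vehicle array 5 to 13 probes were called in all. Signal over background was lower on the GSK-J4 arrays, which limits dim probes there.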
